A study of Mus musculus with 6 samples.

Results

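The small nucleolar RNA (snoRNA) host transcripts described here are 10 long non-coding RNA genes of the mouse: Gas5, Snhg1, Snhg3, Snhg5, Snhg6, Snhg8, Snhg12, Snhg15, Snhg17 and Snhg18. They were chosen by symbol, through the Ensembl gene identifiers of the count table and the GENCODE M21 annotation. Of the 43346 genes in the table, 8 were members. Snhg1 and Snhg8 matched no identifier there and were not analysed here, apart from their annotated sequence and the snoRNA gene Snora24, which lies inside Snhg8. All 8 members passed the filter on low counts. The cells were primary embryonic fibroblasts (MEFs) of C57BL/6 mice at passage 9, cultured with 2-mercaptoethanol in the medium of both groups. One group of 3 libraries came from cells given 3 µM erastin for 24 h, the other group of 3 from cells labelled DMSO, the solvent. Erastin blocks the cystine/glutamate antiporter and can trigger ferroptosis, in which cells die as their membrane lipids are oxidised with the help of iron. The labels name no separate cultures or animals behind the 3 libraries of a group, so p-values measure the spread between these libraries, which may be technical.

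A snoRNA host gene carries snoRNAs in its introns. After splicing, the intron is trimmed to the snoRNA, which is packed with core proteins into a particle (snoRNP) that guides chemical modification or processing of ribosomal RNA, while the joined exons leave as the host transcript. Hosts of the Gas5 type are not known to encode a functional protein. Their short reading frames are read by ribosomes and end well before the last exon junction, an arrangement that marks an RNA for nonsense-mediated decay, and such RNAs are known to build up when translation is inhibited. Many snoRNA hosts also begin with a pyrimidine tract like the one at the start of ribosomal protein mRNAs, through which their translation follows growth signals.

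The first reading frames show how early translation of these transcripts would stop. In the GENCODE M21 annotation (GRCm38), the transcript with the most exons among those tagged basic was used for each member. Other transcripts were not examined. Each of the 10 had at least 1 exon junction more than 50 bases after the first stop. Taking the transcript with the most exons favours such junctions, and no share over other transcripts was computed, so the count does not set these genes apart. The frame of Snhg3 lies in the sequence of its snoRNA Snora73a, so that transcript is not of the joined exons alone. The frame of Snhg8 has 1 codon. Gas5 had 12 exons in 502 bases of spliced RNA, a first frame of 23 codons and 7 such junctions. Snhg12 had 5 exons, a first frame of 54 codons and 3 junctions after it. Snhg5 had 6 exons, 36 codons and 2 junctions, and Snhg18 had 2 exons, 29 codons and 1 junction. The frames are printed 5′ to 3′ with the start and stop codons in capitals, for Gas5 as the most counted member and for the 3 members that passed the test for a change.
Gas5: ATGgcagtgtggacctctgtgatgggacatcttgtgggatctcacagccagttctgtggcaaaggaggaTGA
Snhg12: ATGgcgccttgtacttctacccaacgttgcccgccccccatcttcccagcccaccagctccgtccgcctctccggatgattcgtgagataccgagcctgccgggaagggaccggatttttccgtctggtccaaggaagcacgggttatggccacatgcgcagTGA
Snhg5: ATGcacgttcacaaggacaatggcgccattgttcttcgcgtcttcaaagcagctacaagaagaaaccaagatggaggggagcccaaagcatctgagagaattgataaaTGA
Snhg18: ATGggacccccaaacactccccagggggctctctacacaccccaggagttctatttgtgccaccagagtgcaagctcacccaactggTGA
Whether a frame is translated in MEFs was not measured.

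The start sites of the same 4 genes were read from the RefSeq promoter table (GRCm38.p6), which held 11 windows for 9 of the 10 members. Each stretch below has 50 bases with the annotated start at base 26, and the pyrimidine tract is in capitals.
Gas5, chr1:161035141-161035190, plus strand: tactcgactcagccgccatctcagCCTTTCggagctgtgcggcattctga
Snhg12, chr4:132308653-132308702, plus strand: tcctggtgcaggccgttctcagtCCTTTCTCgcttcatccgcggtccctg
Snhg5, chr9:88522873-88522922, minus strand: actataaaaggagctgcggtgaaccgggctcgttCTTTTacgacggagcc
Snhg18, chr15:32244638-32244687, minus strand: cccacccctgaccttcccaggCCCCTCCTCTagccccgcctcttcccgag
A tract, defined as C followed by at least 4 pyrimidines and starting within 10 bases of the annotated start, was found in 6 of the 11 member windows, those of Gas5, Snhg3, Snhg5, Snhg8, Snhg12 and Snhg18, and in 30.7% of all 32851 windows in the table. The other Gas5 window, which begins upstream, had none. Both members that rose and the member that fell had a tract by this rule, at unlike places. It began 2 bases before the annotated start in Snhg12, 4 before in Snhg18 and 9 after in Snhg5. The part of the tract in the changes was not tested. Over the full windows, from 250 bases before to 50 after a start and on both strands, CACGTG occurred in that of Snhg15 (7.15% of all windows) and TGACGT in those of Snhg15 and Gas5 (7.51% of all windows). TGATGNAAT was in no member window (0.965% of all windows).

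Of the 8 measured hosts, Snhg12 and Snhg5 rose after erastin, Snhg18 fell, and Gas5, Snhg3, Snhg6, Snhg15 and Snhg17 did not pass the test. Levels are CPM, counts scaled by library size with TMM factors, and a change is the log2 fold change of erastin minus DMSO from edgeR's quasi-likelihood test, called at an adjusted p-value under 0.05 over 14000 genes tested. Calls were common in this comparison: 43.1% of genes tested passed, 21.6% higher and 21.5% lower, so 2 higher and 1 lower of 8 is close to the share among genes at large. The median change of the 8 members was 0.18, with a range of -1.20 to 1.18, beside a median of -0.0014 over all genes tested. All 3 erastin libraries lay above all 3 DMSO libraries for 2 members and below them for 1, against 26.7% and 25.9% of genes tested.

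Snhg12, on chr4:132308623-132311024 of the plus strand, holds 5 annotated snoRNA gene entries, with Snora16a entered more than once at nearly the same place. Its level was 16.4, 17.3 and 20 CPM in DMSO replicates 1 to 3 and 39.2, 37.2 and 45.0 CPM in erastin replicates 1 to 3. Every erastin library stood above every DMSO library with a wide gap. The mean went from 17.9 ± 1.88 to 40.4 ± 4.04 CPM (SD, n = 3 libraries each), a ratio of 2.26. The change was 1.18 (SE 0.13, 95% interval 0.90 to 1.45; edgeR adjusted p = 3.62e-06). Reads numbered 217 to 312 per DMSO library and 621 to 867 per erastin library.

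Snhg5, on chr9:88521050-88522929 of the minus strand, is the host of Snord50a and Snord50b. It had 7.48, 10.5 and 7.39 CPM in the DMSO libraries and 14.4, 12.8 and 12.9 CPM in the erastin libraries. The groups did not overlap, and DMSO replicate 2 was the library nearest to the erastin values. The mean rose from 8.47 ± 1.79 to 13.4 ± 0.908 CPM (SD, n = 3 each), with a change of 0.65 (SE 0.20, 95% interval 0.23 to 1.08; edgeR adjusted p = 0.0151). The call rested on 2 libraries in turn: without DMSO replicate 1 the change was 0.57 with an adjusted p of 0.0562 (edgeR), and without erastin replicate 1 it was 0.59 with an adjusted p of 0.0691 (edgeR).

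Snhg18, on chr15:32240565-32244662 of the minus strand and the host of Snord123, moved the other way. DMSO libraries had 27.6, 31.0 and 24.1 CPM, and erastin libraries had 10.4, 12.2 and 13.5 CPM. No erastin library reached the lowest DMSO library. The mean fell from 27.6 ± 3.43 to 12.0 ± 1.53 CPM (SD, n = 3 each), a ratio of 0.436, and the change was -1.20 (SE 0.15, 95% interval -1.53 to -0.87; edgeR adjusted p = 1.94e-05). Snhg12 and Snhg18 differ in annotation too: the exons of all Snhg12 transcripts together cover 100% of its span, and those of Snhg18 cover 36.3%.

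Gas5, on chr1:161034422-161038539 of the plus strand, holds 10 annotated snoRNA gene entries, the most of any member. Snord80 is entered more than once among them, at nearly the same place, and another entry is named Mir5117. It was measured at 71.1, 77.3 and 72.3 CPM in DMSO and 83.9, 71.5 and 98.5 CPM in erastin. Erastin replicates 1 and 3 lay above all DMSO libraries, and erastin replicate 2 lay among them. The means were 73.6 ± 3.27 and 84.7 ± 13.5 CPM (SD, n = 3 each), and the change of 0.20 (SE 0.11, 95% interval -0.03 to 0.43) did not pass (edgeR adjusted p = 0.147). Single libraries moved this value: it was 0.31 with an adjusted p of 0.0308 without erastin replicate 2, and 0.08 with an adjusted p of 0.551 without erastin replicate 3 (edgeR). With an offset for GC content and transcript length it was 0.09 (edgeR adjusted p = 0.502). Gas5 made up 38.9% to 45.9% of all reads of the 8 members in each library. The summed members had 167, 181 and 173 CPM in DMSO and 202, 184 and 215 CPM in erastin.

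The other 4 members overlapped between the groups. Snhg6, on chr1:9941959-9944118, had 24.8 ± 1.64 CPM in DMSO and 25.8 ± 2.06 CPM in erastin (SD, n = 3 each), a change of 0.06 with a 95% interval of -0.21 to 0.33. Snhg17, on chr2:158353700-158361580, had 11.1 ± 1.71 and 12.4 ± 1.73 CPM, a change of 0.16 (-0.25 to 0.57). Snhg15, on chr11:6525591-6528760, had 7.0 ± 1.35 and 8.25 ± 0.826 CPM, a change of 0.23 (-0.26 to 0.72). All 3 of these intervals exclude a change as large as that of Snhg12, and they leave room for smaller ones in either direction. Snhg3, on chr4:132348014-132353686, was the least counted, with 27 to 116 reads per library. Its libraries had 2.04, 3.33 and 4.75 CPM in DMSO and 5.40, 3.17 and 1.76 CPM in erastin. Highest and lowest library of all 6 were both from erastin, and the change of 0.04 had an interval of -0.90 to 0.98. The spread between libraries of 1 group was thus larger than the difference between the groups.

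**Figure D1:**
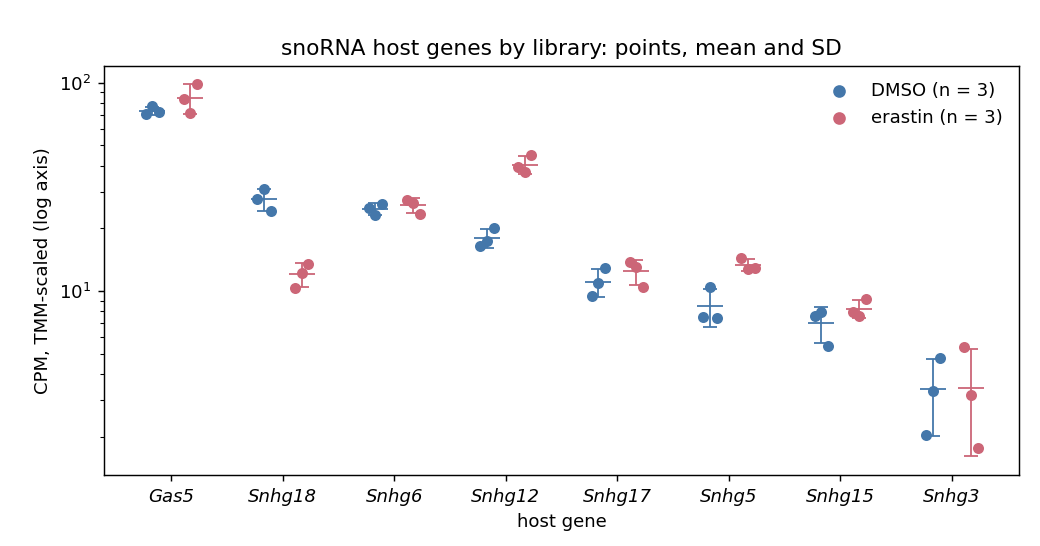
Level of each of the 8 measured host genes in CPM (log axis), with 3 DMSO and 3 erastin libraries as points and the mean and SD as bars. Snhg12 and Snhg5 have all erastin points above all DMSO points, Snhg18 has them below, and the other 5 genes overlap.

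Per kilobase of exon, the members' order differed from their order in CPM, because their annotated exon lengths differ. In DMSO, Snhg6 had 21.6 ± 1.43 CPM per kb, Gas5 19.6 ± 0.87 and Snhg18 18.5 ± 2.31 (SD, n = 3 each), and neighbours among these 3 differed by less than the sum of their SDs. Then came Snhg12 with 7.45 ± 0.782 CPM per kb, Snhg15 with 5.15 ± 0.996, Snhg5 with 4.90 ± 1.03, Snhg3 with 3.42 ± 1.37 and Snhg17 with 1.58 ± 0.242. Of these, Snhg15, Snhg5 and Snhg3 lay within their SDs of each other as neighbours. In erastin, Snhg12 stood at 16.8 ± 1.68 CPM per kb and Snhg18 at 8.09 ± 1.03, so by this measure the 2 had changed places. Gas5 with 22.5 ± 3.59 and Snhg6 with 22.5 ± 1.80 led. Exon length here is the union over all annotated transcripts and covers 17.4% (Snhg3) to 100% (Snhg12) of a measured gene's span. That union has 2402 bases for Snhg12, 3760 for Gas5 and 1486 for Snhg18. Their transcripts used for the reading frames have 606, 502 and 1486 bases. The order and the change of places depend on the length used, and no order by spliced length was computed. Where it covers nearly all of the span, as for Gas5 with 91.3%, transcripts with retained introns are annotated, and gene counts there cannot be called reads of spliced RNA alone.

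Some reads of these genes may belong to a neighbour, because the use of strand in counting is not given in the sources used here. Gas5 overlaps Zbtb37 and Snhg6 overlaps Mcmdc2 on the opposite strand, and Snhg3 overlaps Rcc1 on its own strand and Gm17300 on the other. Snhg17 overlaps an entry named Gm23925 on its own strand, a name that a snoRNA gene inside it also has. Their values carry that uncertainty. Snhg5, Snhg12, Snhg15 and Snhg18, which include all 3 members that passed the test, had no such overlap with another gene in M21 apart from their snoRNAs.

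Reads assigned to genes numbered 13333911 to 20509970 per library, and 3 reads, taken as the detection floor, were worth 0.14 to 0.234 CPM. The summed level of 9 fibroblast markers ran from 28500 to 29700 CPM in DMSO and from 16800 to 18700 CPM in erastin. Collagen genes made up most of it, led by Col1a1 (mean 11000 CPM in DMSO, 6610 in erastin). Each of the 9 had a lower mean in erastin, and their sum stayed far above those of the other cell types in both groups. Summed epithelial markers had 2.00 to 3.17 CPM and blood markers 4.25 to 9.34 CPM over all 6 libraries, with Hbb-bs at 0 reads. Among the blood markers, mean Cd68 went from 2.0 CPM in DMSO to 4.18 in erastin, while Adgre1 and Ptprc were slightly lower. The 3 endothelial markers went from 2.16 to 4.76 CPM in DMSO to 7.60 to 9.85 CPM in erastin, nearly all of it Kdr, while Pecam1 and Cdh5 had at most 15 and 12 reads. The 3 neural markers went from 56.3 to 81.9 CPM down to 37.0 to 45.7 CPM, mostly Tubb3, and the 3 muscle markers from 35.5 to 45.3 CPM up to 65.0 to 68.4 CPM, mostly Des, with Myod1 and Myog at no more than 9 and 4 reads. These levels moved with the same contrast as Snhg12, Snhg5 and Snhg18, and their part in those changes was not tested. In bulk RNA, fewer cells of a type and less RNA per cell cannot be told apart.

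Most of the tested snoRNAs inside the hosts fell, and Snora16a in Snhg12 was the only one of them called opposite to a called host. Of 34 snoRNA gene entries annotated inside the 10 members on their strand, 32 were in the table. The others are second entries of Snord80 and Snora16a. Of the 32, 26 had no read in any library, and 6 were tested. Of these 6, 5 fell, 0 rose and 1 did not pass, with a median change of -1.13. The shares over all genes tested were 21.5% lower and 21.6% higher. At an unadjusted p under 0.05, 0 rose by edgeR, and DESeq2 also called 0 higher. The 6 are those with enough reads, so they do not stand for all 34. All 26 without a read overlap an exon of their host in M21, and of the 6 with reads, 3 do and 3 do not. How the authors' counting treated reads that match both genes was not tested.

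Sequences of the most counted snoRNA inside Snhg12, Snhg3, Snhg6 and Snhg18 are printed from the M21 transcripts (GRCm38). A box C/D snoRNA, which guides 2′-O-methylation, has its C and D boxes in capitals, and a box H/ACA snoRNA, a class that mostly guides pseudouridylation, has its ACA box in capitals.
Snora16a in Snhg12, chr4:132309465-132309600, plus strand: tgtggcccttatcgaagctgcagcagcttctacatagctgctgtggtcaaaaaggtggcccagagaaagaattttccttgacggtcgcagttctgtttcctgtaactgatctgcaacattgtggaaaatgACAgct
Snora73b in Snhg3, chr4:132352322-132352526, minus strand: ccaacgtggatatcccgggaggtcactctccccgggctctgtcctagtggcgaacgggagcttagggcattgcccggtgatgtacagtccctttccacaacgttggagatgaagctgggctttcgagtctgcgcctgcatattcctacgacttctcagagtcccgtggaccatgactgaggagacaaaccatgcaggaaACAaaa
Snord87 in Snhg6, chr1:9942463-9942549, minus strand: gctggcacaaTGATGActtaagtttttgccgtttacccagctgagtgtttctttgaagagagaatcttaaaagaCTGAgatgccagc
Snord123 in Snhg18, chr15:32241853-32241923, minus strand: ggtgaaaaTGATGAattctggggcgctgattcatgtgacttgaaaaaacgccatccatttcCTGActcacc
Snora73b has a near copy in the same host, Snora73a. Both are 205 bases long and differ at 7 of them (96.6% identity), so how reads were split between them is uncertain.

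Snora16a, inside Snhg12, had 59.2, 58.4 and 117 CPM in DMSO and 27.0, 29.0 and 46.1 CPM in erastin. Its groups did not overlap, and the change was -1.20 (SE 0.24; edgeR adjusted p = 0.000972), while its host rose by 1.18. Snora73b, inside Snhg3 and also inside the coding gene Rcc1, is known for a role in early cleavage of the ribosomal RNA precursor. It had 294, 408 and 514 CPM in DMSO and 149, 203 and 206 CPM in erastin, a change of -1.12 (SE 0.16; edgeR adjusted p = 4.89e-05) with no overlap. Snora73a, with 4.67 ± 0.545 CPM in DMSO and 2.14 ± 0.586 in erastin (SD, n = 3 each), fell too, with a change of -1.13 (edgeR adjusted p = 0.0192), but without erastin replicate 1 the adjusted p was 0.0848 (edgeR).

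Snora24, inside the unmeasured Snhg8, fell from 14.1 ± 7.60 to 5.31 ± 1.32 CPM (SD, n = 3 each; change -1.40, edgeR adjusted p = 0.0038). Snord87, inside Snhg6, fell from 21 ± 4.78 to 14.7 ± 1.49 CPM, with a change of -0.51 (edgeR adjusted p = 0.0283). Its adjusted p was 0.146 without DMSO replicate 3 and 0.122 without erastin replicate 1 (edgeR). Snord123, inside the falling Snhg18, had 5.55 ± 2.60 and 3.43 ± 1.07 CPM, a change of -0.68 that did not pass (edgeR adjusted p = 0.154).

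The size of the snoRNA changes moved with the processing. With an offset per library that removes smooth trends of counts with GC content and transcript length, the median was -0.54, and 3 of the 6 were called lower: Snora16a with a change of -0.55, Snora24 with -0.74 and Snora73b with -0.52. Together with the replicate block, Snora24 did not pass (edgeR adjusted p = 0.0525). With the offset alone, Snord87 had 0.13 and Snord123 0.22, neither passing. Fragments were selected for size, which can alter how well short RNAs are recovered, and its part in the result was not tested. DMSO replicate 3 had the highest level of all 6 snoRNAs in DMSO; without it the change was -0.79 for Snora16a, -0.92 for Snora24 and -0.92 for Snora73b, all still called by edgeR. Snhg12, Snhg5 and Snhg18 kept their calls under the offset, with changes of 1.15, 0.62 and -1.22.

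**Figure D2:**
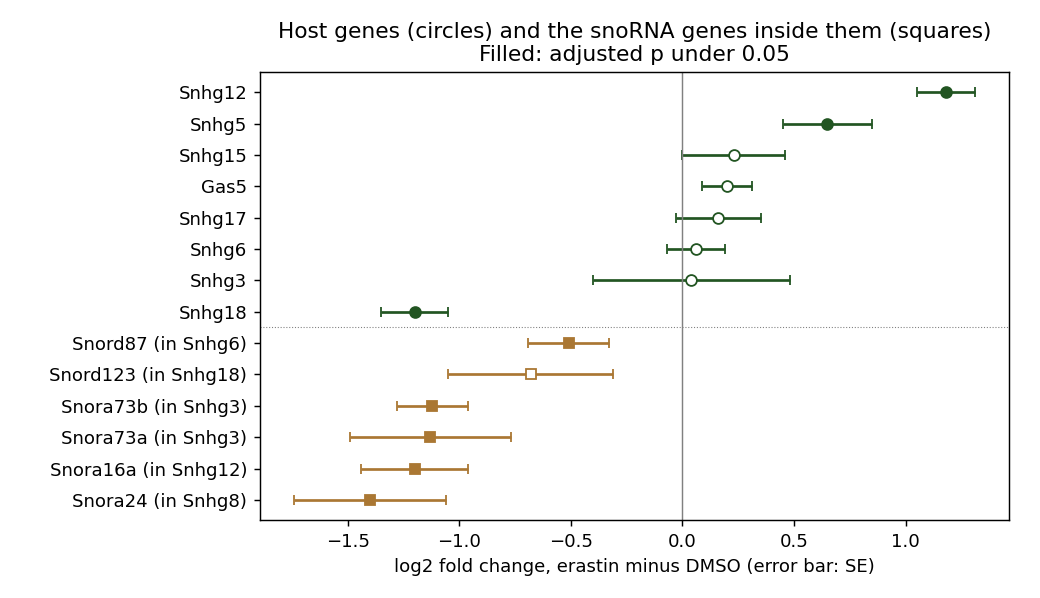
Log2 fold change of erastin minus DMSO for the 8 hosts (circles) and the 6 tested snoRNAs inside members (squares), with SE as bars and filled symbols for an adjusted p under 0.05. Snhg12 sits at 1.18 and its snoRNA Snora16a at -1.20.

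A ratio taken within each library compares a host with its own snoRNAs without any scaling between libraries. It does not remove trends of counts with GC content and transcript length, and it was not computed with that offset. It was the log2 of summed snoRNA reads over host reads, with 0.5 read added to each, for the 4 hosts with at least 10 snoRNA reads. For Snhg12 it was 1.85, 1.75 and 2.55 in DMSO and -0.53, -0.36 and 0.04 in erastin. All snoRNA reads counted inside Snhg12 were of Snora16a, because Snora44, Snora61 and Snord99 had 0 reads. Snora16a overlaps an annotated exon of Snhg12, so host reads there may not be of spliced RNA alone. Snora16a reads outnumbered host reads in every DMSO library, and host and Snora16a reads were close to even after erastin. The means were 2.05 ± 0.43 and -0.28 ± 0.29 (SD, n = 3 each), a difference of -2.34 with a two-sided exact permutation p of 0.1, the smallest that 3 against 3 libraries allow, and 0.2 after adjustment over the 4 hosts.

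Snhg6 also had no overlap, with -0.38, -0.41 and 0.00 in DMSO and -1.07, -0.74 and -0.63 in erastin. Its difference was -0.55 (two-sided exact permutation p = 0.1, adjusted 0.2). With the GC and length offset, the change of erastin minus DMSO was 0.13 for Snord87, its only snoRNA, and -0.03 for Snhg6 itself. The lower ratio of Snhg6 may therefore depend on such trends, which was not tested. Snhg3 had a mean of 6.96 ± 0.20 in DMSO and 5.89 ± 1.04 in erastin (SD, n = 3 each), a difference of -1.07 (exact permutation p = 0.2, adjusted 0.267), and erastin replicate 3 lay inside the DMSO range. Snhg18 was the only 1 of the 4 with a higher mean ratio after erastin, -2.40 ± 0.79 against -1.84 ± 0.58, and its groups overlapped (difference 0.56, exact permutation p = 0.4, adjusted 0.4). The exact permutation test cannot give a p under 0.1 with 3 libraries against 3.

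**Figure D3:**
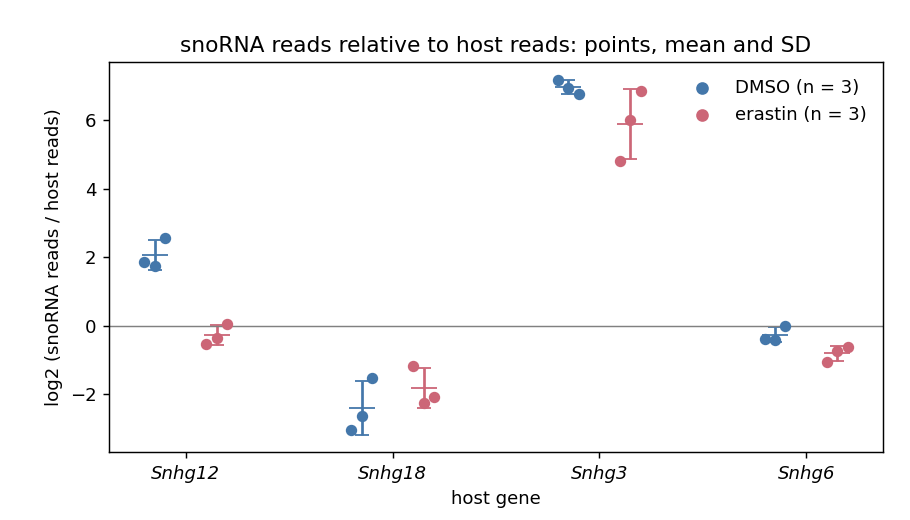
Log2 of snoRNA reads over host reads in each library for the 4 hosts with counted snoRNAs, as points with mean and SD (3 DMSO and 3 erastin libraries). For Snhg12 and Snhg6 the erastin points lie below all DMSO points, and for Snhg3 and Snhg18 the groups overlap.

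Other non-coding snoRNA hosts were also mixed in direction. Of 12 listed, 6 were tested, and 1 rose, 1 fell and 4 did not pass (median 0.22). This stands beside 21.6% higher and 21.5% lower over all genes tested. Zfas1, a host of box C/D snoRNAs, rose from 18.1 ± 3.39 to 27.2 ± 1.47 CPM (SD, n = 3 each; change 0.58, edgeR adjusted p = 0.00567). Rian, the imprinted host of a large C/D snoRNA cluster, fell from 207 ± 1.82 to 140 ± 8.53 CPM (change -0.56, edgeR adjusted p = 2.52e-05). Snhg14, the imprinted host transcript of the Snurf-Snrpn region, had 0.314 and 1.21 CPM and did not pass (change 1.86, SE 0.82, edgeR adjusted p = 0.0741).

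Protein-coding genes with a snoRNA annotated inside them moved in both directions. Of 279 such genes, 239 were tested, 58 rose and 47 fell, with a median of 0.02. For this list and those below, the shares over all genes tested were 21.6% higher and 21.5% lower. The balance turned with the scaling: 51 rose and 66 fell with upper-quartile factors, and 49 rose and 63 fell with the GC and length offset. On a shorter list of textbook coding hosts, 27 were tested, 6 rose and 10 fell (median -0.15), among them the nucleolar protein Ncl with 0.83 and the translation elongation factor Eef2 with -0.63. The smallest p-values belonged to Top2a, the topoisomerase of dividing cells, with a change of -2.32 (edgeR adjusted p = 7.73e-09), Lpp, an adhesion protein, with -0.85 (1.05e-07), and the heat shock cognate Hspa8 with 0.85 (1.62e-07). For 79 of these hosts a snoRNA was also tested. The median change was 0.04 over those hosts and -1.02 over their 102 snoRNAs, of which 42 fell and 1 rose. With the GC and length offset the snoRNA median was -0.20, and 10 fell and 4 rose. Without DMSO replicate 3 the snoRNA median was -0.43 and 19 fell, and without erastin replicate 1, 22 fell.

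The proteins that bind the snoRNAs were next. Of 8 tested core proteins of the snoRNP, 3 rose and 0 fell (median 0.19), against 21.6% higher and 21.5% lower over all genes tested. By unadjusted p under 0.05, 1 was lower, and DESeq2 called 0 lower. Nop58 rose from 58.5 ± 3.32 to 100.0 ± 5.08 CPM (change 0.78, edgeR adjusted p = 4.7e-06) and Nop56 from 45.4 ± 3.26 to 76.4 ± 10.5 CPM (change 0.75, edgeR adjusted p = 5.64e-05), both partners in the C/D particle. Dkc1, the pseudouridine synthase of the H/ACA particle, rose by 0.42 (edgeR adjusted p = 0.04), a call lost without DMSO replicate 1 (adjusted p = 0.0735), DMSO replicate 3 (0.113) or erastin replicate 1 (0.246), each by edgeR. It was also lost with upper-quartile factors (edgeR adjusted p = 0.0706) and with the GC and length offset, alone (0.0874) or with the replicate block (0.0891). Fbl, the methyltransferase of the C/D particle, had a change of 0.00. Nop56 and Dkc1 are themselves snoRNA hosts.

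Among 12 snoRNP assembly factors, 3 rose and 1 fell (median 0.28), against 21.6% higher and 21.5% lower over all genes tested. Nolc1, a nucleolar chaperone, rose by 0.81 (edgeR adjusted p = 6.92e-06), Ruvbl2, an ATPase of the assembly complex, by 0.78 (7.12e-06), and Naf1, which loads H/ACA particles, by 0.87 (0.000922). Pih1d1, a member of the same co-chaperone complex as Ruvbl2, fell from 34.3 to 25.6 CPM, a change of -0.42 (edgeR adjusted p = 0.0215). Its adjusted p was 0.105 without DMSO replicate 1, 0.119 without erastin replicate 1, 0.146 with the GC and length offset and 0.174 with offset and replicate block (edgeR).

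Nonsense-mediated decay factors were measured because hosts of this kind are known substrates of that pathway. Of 21 tested, 9 rose, 0 fell and 12 did not pass, with a median of 0.35. Among all genes tested, 21.6% rose and 21.5% fell. At an unadjusted p under 0.05, 1 was lower, and DESeq2 called 0 lower. The kinase Smg1 rose from 127 ± 4.81 to 246 ± 13.6 CPM (SD, n = 3 each; change 0.96, edgeR adjusted p = 1.48e-07). Upf2, the bridge between the exon junction and the decay complex, rose by 0.93 (edgeR adjusted p = 1.46e-05), and the helicase Upf1 by 0.80 (edgeR adjusted p = 2.17e-05). Several mRNAs of the pathway are known to be its own substrates.

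All 6 mRNAs on a list of reported decay substrates rose, with a median of 1.02, beside 21.6% higher over all genes tested. The list was chosen with earlier results of these data known, so it is no test of decay and no standard for the hosts. Atf3 rose by 4.59, Gadd45a by 2.51 (edgeR adjusted p = 1.88e-09), Ern1 by 1.11, Atf4 by 0.93, Gadd45b by 0.89 and Ddit3 by 0.38. These 6 are also genes of the integrated stress response, the unfolded protein response or DNA damage signalling. The call for Ddit3 was lost without DMSO replicate 1 (edgeR adjusted p = 0.0987) or erastin replicate 3 (0.102). No stability or translation was measured.

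**Figure D4:**
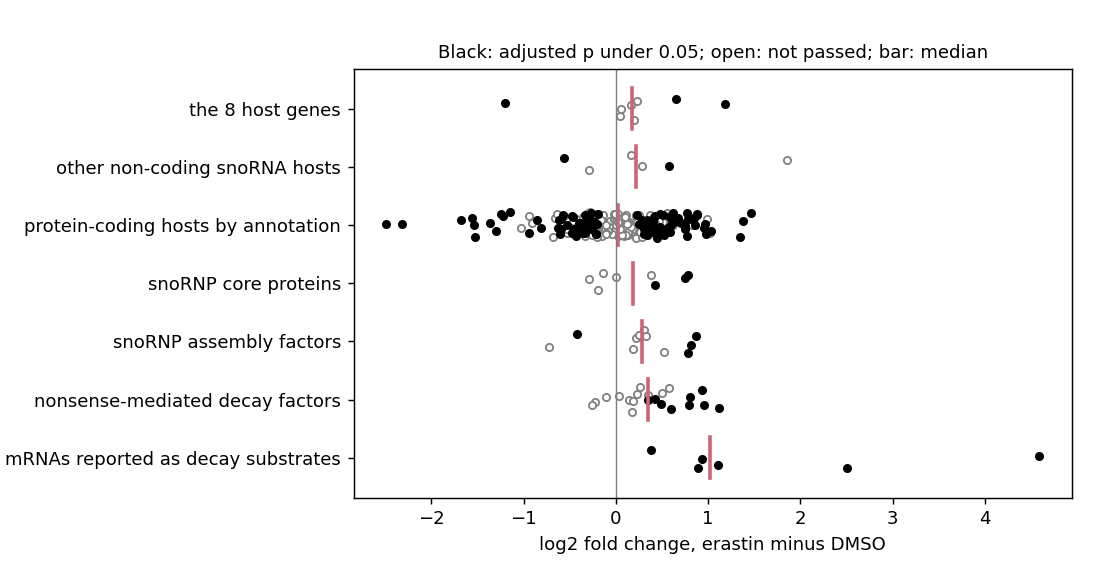
Log2 fold change of every tested gene of each list, filled where the adjusted p was under 0.05, with the median as a bar. The 8 hosts have a median of 0.18 and spread from -1.20 to 1.18, and the 6 decay substrates all lie above zero with a median of 1.02.

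The genes most like Gas5 over the 6 libraries were named by the Pearson correlation of log2 CPM, taking only genes that averaged at least 50 reads. They were Fam126b (r = 0.9828), Arid2 (0.9824), Pcdh9 (0.9802), Eed (0.9787) and Zfp958 (0.9773). All share the same 6 libraries and their depth, and none of the other members was among the 5.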

How the data were processed

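RNA was measured in 6 libraries, 3 labelled DMSO and 3 labelled erastin. Total RNA was freed of ribosomal RNA, fragmented by heat, made into barcoded PCR libraries of selected size and sequenced on an Ion Proton, per the labels' protocols. The authors deposited whole-number read counts per gene without normalization. HTSeq 0.9.1, SAMtools and the build mm10 are named per the submitters' processing notes. The aligner, annotation release, strand setting and treatment of reads that match several genes are not given in the sources used here. Of 43346 identifiers, 42462 had a symbol in GENCODE M21, whose GRCm38 coordinates are printed.

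Counts were filtered by filterByExpr (minimum 10, total 15), scaled by TMM and tested with edgeR 4.0.16 (R 4.3.3, quasi-likelihood, treatment as the only term), with Benjamini-Hochberg adjustment over all 14000 genes tested and a threshold of 0.05. SEs came from the fitted weights and the posterior dispersion. The script was tested on simulated data. Intervals cover the model's error at 95%, and floors cover counting error only. No column was set aside.

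The members and lists were chosen with earlier results of these data known, so no p-value is given over a list. Named genes were the members, per list the 3 genes with the lowest p-value, each host's most counted snoRNA and the 5 genes most like Gas5. Ern1, Gadd45b, Ddit3, Fbl, Pih1d1, Snora73a and the 6 tested snoRNAs as a set were named beyond these to explain small counts.

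Same-numbered libraries did not deviate together (correlations 0.0284, 0.000818 and -0.00378), so the replicate number is not treated as a pairing. Within a group, libraries differed by 11 to 19.2 chi-square per degree of freedom, so none was a duplicate. Alternatives were other scalings, filters, DESeq2 1.42.0, a GC and length offset (mgcv 1.9.3), a replicate block, and each library left out in turn.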

Additional observations from a re-analysis of the deposited data

How the results depend on the processing

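Snhg12 (1.10 to 1.26) and Snhg18 (-1.29 to -1.10) kept direction and call in all 16 alternatives. Members called higher numbered 1 at an adjusted p under 0.01 and 1 to 3 with a library left out, and lower 1 throughout. With the replicate block, 3 members and 5882 genes were called, against 3 and 6028, and no member changed its call. The value of Snhg3, not called in either fit, turned to -0.03. Snhg3 was -0.01 with upper-quartile factors and with the offset and replicate block together, and -0.45 to 0.36 with a library left out. Snhg6 was -0.03 with the offset for GC and length, alone and together with the replicate block.

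For the snoRNAs inside members, calls (all lower) were 3 with the offset, 2 with offset and block, and 3 to 5 with a library left out, and the median was -0.54 and -0.55 in turn. Snord123 was 0.22 and 0.15 and Snord87 0.13 and 0.16 under the same 2 settings. With the offset, alone or with the block, 0 assembly factors and 1 decay factor were lower. Upper-quartile factors gave 1 lower core protein and 1 lower decay factor. With a library left out, 0 to 1 assembly and 0 to 1 decay factors were lower, and the medians were 0.27 to 0.38 and 0.33 to 0.45. The decay factor median was 0.42 with total counts. The other non-coding hosts had a median of -0.01 with the 1 CPM filter and -0.06 to 0.44 with a library left out. The protein-coding host median was -0.03 (upper-quartile), 0.09 (total counts), 0.04 (no filter), 0.00 (offset), -0.01 (offset and block) and 0.00 to 0.03 with a library left out. The cause of these shifts was not tested. The median of all genes was -0.055 with upper-quartile factors and 0.065 with total counts. The ratio without the most counted snoRNA could be computed for Snhg3 only. Of the snoRNAs inside members, 26 had no read. Of the 102 snoRNAs of coding hosts, 14 were called with the offset (4 higher, 10 lower, median -0.20) and 14 with offset and block (4, 10 and -0.19). With a library left out, 20 to 48 were called, 0 to 1 higher and 19 to 47 lower (median -1.25 to -0.43). Of their 79 hosts, 25 were lower with upper-quartile factors and 8 to 18 with a library left out, and the median was -0.01 (upper-quartile) and 0.10 (total counts).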
